A study of Mus musculus with 30 samples.

Results

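The response of the wild type lung to lipopolysaccharide (LPS) was read from the authors' mean normalized counts of 3 libraries taken 6 h after LPS and 2 libraries labelled PBS. The 15041 entries described here are those of the 19470 in the lung table whose mean was 10 or more in either group. LPS is a cell wall component of Gram-negative bacteria that is sensed by Toll-like receptor 4. The lungs came from 8-week-old C57BL/6 mice with no engineered allele, and LPS was injected into the peritoneum at 20 mg/kg, so the lung met it through the blood. The series also holds spleens, and lungs and spleens of lincRNA-Cox2 mutant and knockout mice, which carry changes in a long noncoding RNA gene beside Ptgs2. Each entry is described by the log2 ratio of the LPS mean to the PBS mean after adding 1 to both. A group mean holds no spread between libraries, so no value below has an SD or a p-value, and a difference cannot be set against replicate error. The labels do not say that the libraries of a group are separate animals.

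Intraperitoneal LPS at a high dose is a standard model of endotoxaemia. Tlr4 on macrophages and endothelium signals through Myd88 to NF-kB and through Ticam1 to interferon regulatory factors. Cytokines, chemokines and interferon follow within hours, interferon then induces antiviral genes in most cells, and neutrophils collect in the lung capillaries. The lung is rich in capillaries, so its RNA carries a large endothelial share. In bulk tissue, fewer cells of a type and less RNA per cell cannot be told apart.

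The tissue matched its label in both groups: Sftpc, the surfactant protein of alveolar type 2 cells, stood at 41800 in the PBS group and 35400 in the LPS group, and Scgb1a1 of airway secretory cells at 26900 and 24200. From here on, a pair of values gives the PBS mean first and the LPS mean second, and a signed value beside it is the log2 ratio. The group means resolve into whole reads of single libraries, with estimated totals of 8.17 to 13.0 M reads with LPS and 6.76 to 8.85 M with PBS. The groups also differed in ways the labels do not give. Xist, the RNA of the inactive X chromosome, stood at 3660 and 14.5, and all 4 Y-linked genes measured were at least 2-fold higher with LPS, as were 13.9% of all entries, for example Ddx3y at 294 and 1150. Digestive enzyme genes of the pancreas were present with PBS: all 9 measured were at least 2-fold lower with LPS, as were 14.3% of all entries, with Ctrb1 at 190 and 8.11 and a median log2 ratio of -3.81. Their medians were 0.22 in mutant and 1.51 in knockout lung. Over 5 skeletal muscle genes the median was -0.10, and of 10 heart genes 1 was at least 2-fold higher and 2 lower. The skeletal muscle medians were -0.49 in mutant and -2.07 in knockout lung. The summed means of that list in knockout were 4618 with PBS and 1056 with LPS. The part of sex and of RNA from other organs in the results was not tested.

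With LPS, 2098 of 15041 entries (13.9%) were at least 2-fold higher and 2158 (14.3%) at least 2-fold lower. Each count of list members below is to be read beside these 2 shares. Without chromosomes X and Y the counts were 2051 and 2088. The higher group reached farther: 397 entries were at least 8-fold higher and 137 at least 8-fold lower, and at 32-fold the counts were 69 and 4. The middle of the distribution lay near 0, with a median log2 ratio of -0.03 and quartiles of -0.61 and 0.51. Entries at least 2-fold higher held 10.0% of all normalized counts with PBS and 32.1% with LPS, and those at least 2-fold lower held 10.8% and 2.69%. The summed counts were 7.80 M with PBS and 10.0 M with LPS. Scaling both groups to the same total lowers every log2 ratio by about 0.36, which gives 1450 entries higher and 3574 lower, so that 28.9% in place of 49.3% of the entries past 2-fold are higher. Log2 ratios between 0 and 0.36 therefore have no settled sign and are given as values only. Nearest to the limit of 10 lay Ube2t at 10 inside it, and Efcab11 at 9.99 and Il23r at 9.98 outside it. An entry below 10 with PBS passes only if its LPS mean reaches 10, so its log2 ratio can only be above 0. The reverse holds for entries below 10 with LPS. Counts of list members that passed the limit are in part set by this.

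**Figure D1:**
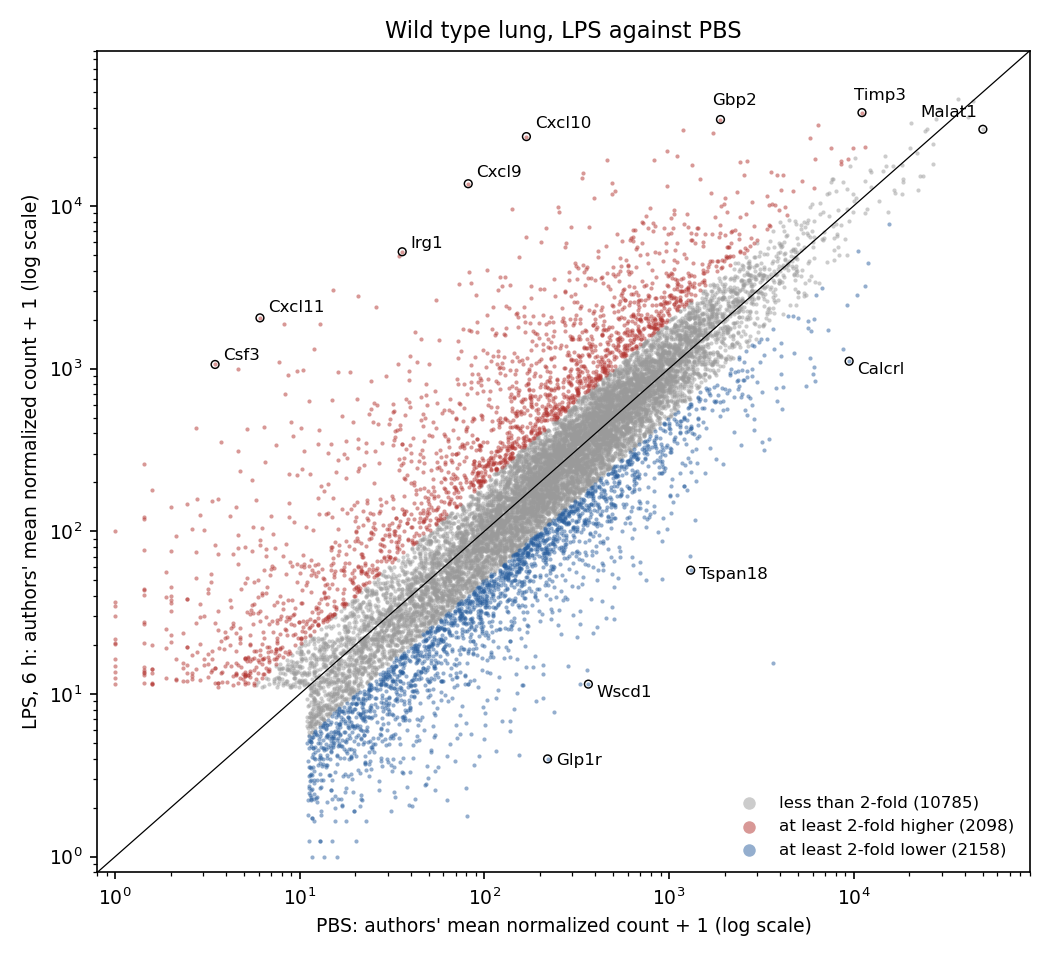
Authors' mean normalized counts plus 1 with PBS (x axis, 2 libraries) and with LPS (y axis, 3 libraries) for the 15041 entries, both axes logarithmic. The 2098 red points lie at least 2-fold above the diagonal and the 2158 blue points at least 2-fold below it, and the chemokines Cxcl9, Cxcl10 and Cxcl11 and the cytokine Csf3 lie far above it.

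The largest log2 ratios belonged to secreted signals. Cxcl11 had a mean of 5.09 with PBS and 2050 with LPS (log2 ratio 8.40), and Csf3, the growth factor of neutrophils, had 2.48 and 1060 (8.25). Adamts4, a protease that cuts matrix proteoglycans, stood at 7.27 and 1870 (7.82), and Ubd, an interferon-inducible ubiquitin-like protein, at 3.63 and 991 (7.74). Irg1, which makes itaconate in activated macrophages, stood at 34.9 and 5230 (7.19). By difference of means the leading genes were Gbp2 (1900 and 34000), the iron-binding protein Lcn2 (1190 and 29500), Cxcl10 (168 and 26700) and Timp3 (11100 and 37500), an inhibitor of metalloproteases that was already abundant with PBS. Akap12, Clic4, Gbp10, Tgm2, Iigp1, Rsad2, Slfn4 and Ifit1 completed the 12 largest differences. Thus the genes with the steepest ratios were mostly near silent with PBS, and those with the largest differences were not.

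The sensing machinery was itself higher. Cd14, the co-receptor that hands LPS to Tlr4, stood at 271 and 5620 (log2 ratio 4.37), while Tlr4 itself had 137 and 333 (1.28). Myd88, the adaptor of the NF-kB branch, was at 370 and 2300 (2.63). Ticam1 and Ticam2, the adaptors of the interferon branch, had ratios of 0.30 and -0.09. The largest ratio among the kinases of the pathway was that of Irak3 (113 and 1610; 3.82), which dampens it. Of the 14 genes listed, which include the target Irg1, 9 were at least 2-fold higher and 0 lower. Among the 11 other Toll-like receptors, 7 were higher, led by Tlr2 (239 and 2790; 3.54), and 3 were lower: Tlr5 (-1.72), Tlr11 (-1.87) and Tlr12 (-2.07). Of 12 inflammasome genes, 8 were higher, among them Nlrp3 (44.2 and 672; 3.90) and Casp4 (177 and 2710; 3.93), the caspase that binds LPS inside cells, and Nlrp1b was lower (-1.42).

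Inside the cell, subunits and inhibitors of NF-kB were both higher. Tnfaip3, a deubiquitinase that ends the signal, had means of 215 and 7330 (log2 ratio 5.08), and Nfkbia, the inhibitor that holds NF-kB in the cytoplasm, 1070 and 9500 (3.15). The subunits Rela, Nfkb1 and Rel had ratios of 0.69, 1.48 and 2.21, and the inhibitor Nfkbib 2.19. Of the 16 genes in this list, 13 were at least 2-fold higher and 0 lower, against 13.9% and 14.3% of all entries. Feedback genes of cytokine receptors were higher too: Socs1 stood at 23.4 and 564 (4.53) and Socs3 at 276 and 5930 (4.42), while Stat3 had 1.97. Of 9 interferon regulatory factors 7 were higher, with Irf7 (842 and 7480; 3.15) first and Irf3, which acts before interferon is made, at -0.57. Among 16 AP-1 and early response factors 8 were higher, and at 6 h Fos and Jun stood at 0.68 and 0.43. Fosl1 was read in PBS from 3 reads, at 1.46, and had 147 with LPS. That is a 101-fold ratio with a 95% exact Poisson interval of 34.5 to 488, which covers the counting error of the PBS reads only. Ratios given with such an interval or a floor are taken without the pseudocount, unlike the log2 ratios.

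Chemokines were the highest gene family of those with 15 or more members. Of 21 Ccl entries 17 were at least 2-fold higher and 0 lower, with a median log2 ratio of 3.99. Entries below 10 with PBS, such as Ccl2 and Ccl20, passed only through the LPS group and so could only be higher. The symbol Ccl19 stands on 6 of these entries, whose gene has near-identical copies, so their reads cannot be assigned with certainty. The neutrophil attractants Cxcl1 (19.8 and 2810; 7.08), Cxcl2 (14.2 and 3060; 7.65) and Cxcl5 (3.77 and 233; 5.62) were low with PBS. Cxcl3 rested on 1 read with PBS and had a mean of 259 with LPS, a ratio of 587 with a 95% interval of 105 to 23197 from counting that read alone. Cxcl15, which the lung epithelium makes at rest, stood apart at 6140 and 8130 (0.40). The monocyte attractants Ccl2 (9.47 and 982; 6.55) and Ccl7 (14.0 and 641; 5.42) and the macrophage inflammatory proteins Ccl3 (11.8 and 1870; 7.19) and Ccl4 (15.2 and 951; 5.88) were of the same order. All 3 ligands of Cxcr3, the receptor of activated T and natural killer cells, lay above 7: Cxcl9 at 80.8 and 13700 (7.39), Cxcl10 at 168 and 26700 (7.30), and Cxcl11 as given above. Cxcl12, which holds leukocytes and progenitors in place at rest, was lower (1880 and 507; -1.89).

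Cytokines followed the chemokines. Il6 had means of 6.72 and 1100 (log2 ratio 7.16), Il1b 294 and 7430 (4.65), Tnf 9.20 and 428 (5.39) and Ifng 8.62 and 973 (6.66). Il1rn, the antagonist of the interleukin 1 receptor, stood at 141 and 9600 (6.08), and the decoy receptor Il1r2 at 71.5 and 3300 (5.51), so both brakes on interleukin 1 had larger ratios than Il1b. Il10, which dampens macrophages, was read from 2 reads with PBS (1.02) and had 140 with LPS, a ratio of 137 with a counting interval of 38.0 to 1133. Il22 was listed at 0 with PBS and had 99.3 with LPS, which is at least 57.4-fold higher against a floor of 3 reads over the PBS group. Il17a and Il17f, chosen after their values were seen, each had 1 read with PBS and means of 118 and 179 with LPS, with counting intervals of the ratio of 48.0 to 10569 and 55.7 to 12253. In all 18 of the 20 cytokine genes that passed the limit were at least 2-fold higher and 0 lower, with a median of 3.70, and Il19 and Ifnb1 of the list stayed under it. Members below 10 with PBS, such as Il6, Tnf and Ifng, passed only through the LPS group and so could only be higher. The count is in part set by this. Over the wider family of 60 Il genes, receptors included, 38 were higher and 5 lower. Il9r (-2.85), Il17re (-1.79), Il17d (-1.33), Il27ra and Il17rd (both -1.14) were the lower ones.

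Acute phase and antimicrobial proteins formed one of 5 lists in which every member that passed the limit was at least 2-fold higher. Saa1 (10.9 and 1320; 6.79), Saa2 (7.37 and 699; 6.39) and Saa3 (343 and 15900; 5.53) encode serum amyloid A proteins. Ptx3, a soluble pattern receptor, had 7.60 and 907 (6.72), and Hpx, which binds free heme, 29.3 and 454 (3.91). Saa2 and Ptx3, below 10 with PBS, passed only through the LPS group and so could only be higher. The median over 17 genes was 4.63, and the list held 0.225% of all normalized counts with PBS and 1.21% with LPS. Of 13 iron handling genes 7 were at least 2-fold higher and 2 lower, against 13.9% and 14.3% of all entries. Of 5 metallothionein and zinc transport genes 4 were higher and 0 lower. Steap4, a metal reductase, stood at 168 and 6460 (5.26), and the zinc importer Slc39a14 at 153 and 4850 (4.98). The metallothioneins Mt1 and Mt2 had 4.33 and 5.17. Slc40a1, the exporter of iron from macrophages (127 and 60.0; -1.07), and the reductase Steap3 (-1.69) were lower. Complement was mixed, with 5 of 17 genes higher, Cfb of the alternative pathway first (635 and 6130; 3.27), and C1qa and C1qc, made by resident macrophages, at -0.86 and -0.83.

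Interferon-induced genes were higher almost without exception. Of 31 genes of the type I interferon response that passed the limit 29 were at least 2-fold higher, 0 were lower and the median log2 ratio was 2.83. They held 0.375% of all normalized counts with PBS and 2.10% with LPS. Rsad2, which makes an antiviral nucleotide, had means of 459 and 19300 (5.39), Mx1, which traps viral nucleoproteins, 88.8 and 2830 (4.98), Ifit2 492 and 11800 (4.58) and Isg15, a ubiquitin-like modifier, 353 and 4120 (3.54). Ifi27l2a had the lowest ratio of the list, at 408 and 535 (0.39). All 17 interferon-induced GTPases, which attack the vacuoles of microbes, were higher, from Irgm2 (2.32) to Gbp11 (5.40 and 437; 6.10), with a median of 3.44. Among cytosolic nucleic acid sensors 13 of 15 were higher, with Oasl1 (124 and 3230; 4.69) first, Zbp1 at 360 and 4230 (3.55), and the adaptor Mavs at -0.85. Ifnb1 itself was listed at 0 with PBS and at 0.664 with LPS, below the limit of 10.

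Short promoter stretches of genes from these groups are shown because their letters hold the sites that NF-kB and interferon-activated factors are known to bind. They are RefSeq sequences of GRCm38.p6, the build named mm10 in the notes, printed from 5′ to 3′ on the strand of the gene. Capitals mark matches on either strand to 1 of 2 patterns. The first is that of NF-kB sites, GGG, any 3 bases, then TTCC. The second is that of interferon response elements, GAAA, any 2 bases, then GAAA, which on the opposite strand reads TTTC, any 2 bases, then TTTC. In Cxcl2 and Cxcl3 the first run of capitals holds 2 overlapping matches of the first pattern, 1 on each strand.

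Cxcl2, chr5:90903787-90903845, plus strand: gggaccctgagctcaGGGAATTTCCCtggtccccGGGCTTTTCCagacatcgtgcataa

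Cxcl3, chr5:90786013-90786075, plus strand: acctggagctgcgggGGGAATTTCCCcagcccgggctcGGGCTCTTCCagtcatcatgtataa

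Il6, chr5:30013055-30013094, plus strand: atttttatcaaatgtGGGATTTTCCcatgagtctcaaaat

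Cxcl10, chr5:92348969-92349117, minus strand: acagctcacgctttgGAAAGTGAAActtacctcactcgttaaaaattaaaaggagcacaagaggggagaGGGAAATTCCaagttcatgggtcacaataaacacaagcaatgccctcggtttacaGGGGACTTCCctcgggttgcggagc

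Ifit1, chr19:34640770-34640828, plus strand: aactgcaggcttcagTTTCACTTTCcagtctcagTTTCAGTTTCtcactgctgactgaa

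Gbp2, chr3:142620589-142620628, plus strand: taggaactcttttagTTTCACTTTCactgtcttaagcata

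In the stretches printed, Cxcl2 and Cxcl3 show the first pattern and the interferon-induced genes Ifit1 and Gbp2 the second. The stretch of Cxcl10 holds 1 match of the second and 2 of the first. These are a choice from 8 genes with a match before the start, so they show no split by gene class. Of those not printed, Rsad2 held the second pattern and Ubd, also interferon-inducible, only the first. The promoters of Cxcl9 and Slfn4 held neither. The promoter of Gbp2 also holds a match of the first pattern, 7 bases from the start and outside the stretch printed. Of the 47 genes named by size, 36 had a promoter in the table, 6 of these held the first pattern and 4 the second. Over the 11447 distinct symbols with a promoter of 300 bases, 6.14% held the first pattern and 3.21% the second. Promoters were found for 76.9% of all symbols and 71.9% of those at least 8-fold higher, which is under the 80% needed, so shares were not compared between groups of genes. A match describes letters and shows no binding.

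Some genes past 2-fold lay side by side, but most of the 2098 higher and 2158 lower entries did not. Side by side means next in order among measured genes, and some stretches are long, as the 5866 kb from Rgs1 to Ptgs2. Among 14448 symbols with a position, 39 stretches of 4 or more consecutive measured genes were all at least 2-fold higher, holding 204 genes, and 23 stretches with 105 genes were all at least 2-fold lower. The higher stretches include 1 of 4 Y-linked genes, and the lower ones 1 of 5 genes with the pancreatic trypsinogens Try4, Try5 and Prss2. Both stretches of 10 higher genes lay on chromosome 11. One, at 48861968 to 49135387 (mm10), ran from Irgm1 to Ifi47 with a median log2 ratio of 3.38. The other, at 82951349 to 83286726, held the Schlafen genes, growth regulators of lymphocytes and antiviral factors, among them Slfn5 (3390 and 11500; 1.76) and Slfn4 (824 and 19200; 4.54). On chromosome 1, at 173566280 to 174031810, a stretch of 9 held the HIN-200 sensors of DNA, among them Ifi204 (392 and 11200; 4.83) and Ifi205 (202 and 5970; 4.88). Other stretches were the 7 Serpina3 protease inhibitors of chromosome 12, the stefins of neutrophils on chromosome 16, the Trim30 group on chromosome 7 and the Ms4a genes on chromosome 19. Members of these arrays resemble one another, so reads may be shared between them and single ratios are less certain than the block. Among the lower stretches, 7 genes of the HoxA cluster on chromosome 6 at 52155590 to 52221854 were chosen for naming after their values were seen. Hoxa5, which patterns the lung, had means of 629 and 221 (-1.50), Hoxa3 120 and 35.9 (-1.71) and Hoxa4 86.4 and 11.2 (-2.84). The entry Mira in that cluster overlaps the Hox genes, and the sources used here do not say whether reads were counted by strand.

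Antigen presentation split by class in wild type lung. Of 17 genes of MHC class I and its peptide loading 15 were at least 2-fold higher and 0 lower, with a median log2 ratio of 1.48. The peptide transporter Tap1 stood at 715 and 5920 (3.05) and Nlrc5, the activator of class I genes, at 544 and 4770 (3.13). Of 10 class II genes 0 were higher and 3 lower: H2-Ob (159 and 39.5; -1.98), H2-Oa (-1.67) and H2-DMa (-1.38), of class II peptide loading and its control. The class II median was -0.45, against 0.20 in mutant and 0.23 in knockout lung. In each of those 1 of the genes was at least 2-fold higher and 2 lower. Ciita, the activator of class II, was at 243 and 429 (0.82). Of 14 checkpoint and costimulatory genes 11 were higher, led by Tnfrsf9 (17.8 and 952; 5.66), Cd274, which encodes PD-L1 (489 and 13800; 4.82), and Cd80 (37.9 and 627; 4.01). Ido1, which consumes tryptophan, had 53.4 and 2650 (5.61), and Nos2, the inducible nitric oxide synthase, 41.3 and 1690 (5.32). Among prostanoid genes Ptgs2 (189 and 1397; 2.88) and Ptges (238 and 1700; 2.83), which make prostaglandin E2, were higher and Hpgd, which degrades it, was lower (5510 and 782; -2.82). LincRNA-Cox2 had 34.8 with PBS and 30.2 with LPS.

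**Figure D2:**
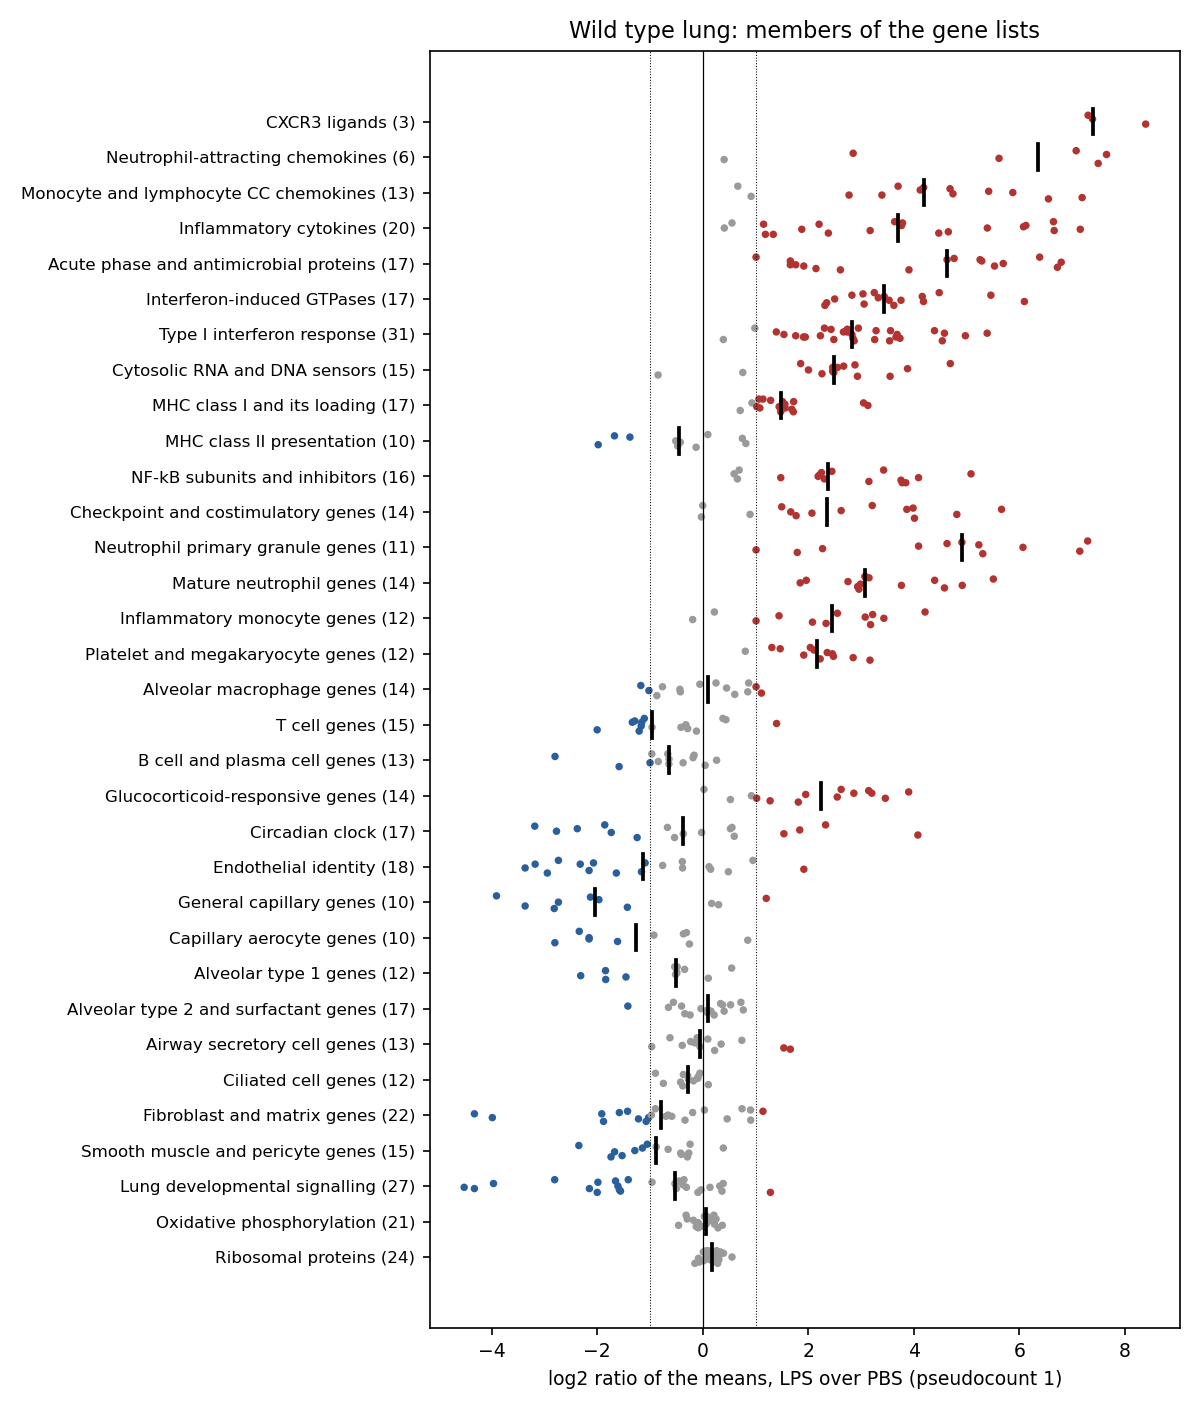
Log2 ratio of LPS over PBS in wild type lung for each member that passed the limit (points) of 33 gene lists, with the number of members in brackets and the median as a black bar. Red points are at least 2-fold higher, blue at least 2-fold lower and grey between, and dotted lines mark 2-fold. Chemokine, cytokine, interferon and neutrophil lists lie to the right, endothelial lists to the left, and ribosomal and oxidative phosphorylation genes lie within 2-fold.

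Genes of blood leukocytes were higher in blocks. All 14 mature neutrophil genes that passed the limit were at least 2-fold higher, with a median log2 ratio of 3.08, or 3.03 with Stfa2, which was listed at 0 with PBS, set at its floor. S100a9, a neutrophil calcium-binding protein, had means of 993 and 6700 (2.75), the collagenase Mmp8 136 and 3280 (4.58) and the chemokine receptor Cxcr2 197 and 1540 (2.96). Granule genes that neutrophils transcribe in the bone marrow had larger ratios: Ngp stood at 33.6 and 4900 (7.15) and Mpo at 3.63 and 310 (6.07). Camp had 3 reads (1.73) with PBS and 428 with LPS (7.30). Without the pseudocount the ratio of Camp was 247, with a counting interval of 84.7 to 1200. Elane, a neutrophil serine protease, had 1.60 from 3 reads and 102 with LPS, a ratio of 63.8 with a counting interval of 21.8 to 309. Of the 12 genes of that list 11 passed the limit, and all 11 were higher. Their median was 4.91, or 5.91 and 3.73 with pseudocounts of 0.1 and 5. Members below 10 with PBS, such as Camp, Elane and Mpo, passed only through the LPS group and so could only be higher. The list is labelled primary granule genes in the figures but is not limited to those. It also holds Lcn2 and Chil3, which lung epithelium and macrophages express. In wild type spleen its median was -0.58.

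Of 12 genes of inflammatory monocytes 10 were higher, such as Ly6c2 (488 and 2470; 2.34), the Fc receptor Fcgr1 (116 and 1060; 3.18) and Vcan (130 and 2430; 4.21). Ccr2, the receptor by which these cells leave the marrow, stood at 473 and 551 (0.22). Of 12 platelet and megakaryocyte genes 11 were higher, with a median of 2.17. Ppbp, a platelet chemokine, had 153 and 1110 (2.85), Gp6, the collagen receptor, 3.19 and 36.7 (3.17) and Itga2b 109 and 473 (2.11). The same platelet genes had a median of -1.05 in spleen. Of 7 erythroid genes 3 were higher, Slc4a1 first (1.85), while the hemoglobin gene Hba-a2 stood at 18294 and 17887 (-0.03).

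Resident and lymphoid cells differed from this. Over 14 genes of alveolar macrophages the median was 0.10, with Marco, a scavenger receptor, at 166 and 360 (1.11), Ear2 at 429 and 211 (-1.02) and Fabp1 at -1.17. Of 15 T cell genes 7 were at least 2-fold lower and 1 higher, with a median of -0.96. The T cell receptor chains Cd3d, Cd3e and Cd3g lay between -1.21 and -1.16, and Cd4 had 77.9 and 31.3 (-1.29). Foxp3 of regulatory T cells was the higher one, at 4.99 and 14.8 (1.40). Of 13 B cell genes 3 were lower, against 14.3% of all entries. Cr2, a complement receptor, stood at 52.5 and 6.68 (-2.80) and Cd79a at 234 and 77.3 (-1.59). Of 13 natural killer and cytotoxic genes 6 were at least 2-fold higher and 0 lower, with a median of 0.78, or 1.85 over members with a mean of 50 or more. Among the effectors Gzmb stood at 38.2 and 973 (4.63) and Prf1 at 22.9 and 128 (2.43), while Ncr1 and Klrb1c had 0.32 and -0.35. Of 13 dendritic cell genes 5 were higher and 3 lower, against 13.9% and 14.3% of all entries. Xcr1, Clec9a and Itgae, of the cross-presenting subset, had -1.85, -1.44 and -1.30, and Ccr7, Fscn1 and Ccl22, of migrating dendritic cells, had 3.04, 2.01 and 4.69.

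Many genes of the vessel wall were lower. Tek, the receptor of angiopoietins that keeps vessels quiet, had means of 3270 and 316 (log2 ratio -3.37), and its opponent phosphatase Ptprb 8800 and 1320 (-2.74). Kdr, through which VEGF acts on endothelium, had 3196 and 717 (-2.15), and the transcription factors Sox17 and Sox18 at -3.18 and -2.95. Of 18 endothelial identity genes 10 were at least 2-fold lower and 1 higher, with a median of -1.13. The higher one was the guidance receptor Robo4 (1030 and 3890; 1.92). Cdh5, the cadherin of endothelial junctions, had 7600 and 14700 (0.95), and Esam, Cldn5 and Flt1 had 0.49, 0.15 and 0.12. Genes of the same cell type therefore lay on both sides of 0. Of 10 general capillary genes 7 were lower, with Aplnr, the apelin receptor, at 752 and 49.1 (-3.91). Of 10 genes of aerocytes, the capillary cells that line the alveolus, 5 were lower, with Fibin at -2.80 and Ednrb, the endothelin B receptor, at 1170 and 262 (-2.15). Car4 and Lpl of these lists had 0.85 and 1.20.

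Of 22 genes of vessel tone, shear and clotting 9 were at least 2-fold higher and 7 lower, with a median log2 ratio of 0.39. The genes named here were chosen with their values known. Calcrl, the receptor of adrenomedullin, had 9460 and 1110 (-3.09) and its partner Ramp2 3490 and 369 (-3.24), while the ligand Adm had 38.4 and 577 (3.87) and the alternative partner Ramp3 32 and 379 (3.53). Angpt2, which opposes Tek signalling, stood at 306 and 1900 (2.63) and Angpt1, which activates it, at 791 and 387 (-1.03). Thbd, the thrombin receptor that starts the anticoagulant protein C pathway, was lower (6050 and 927; -2.70), and Procr, which binds protein C, was higher (45.7 and 287; 2.62). Tissue factor F3, which starts clotting, had 491 and 1800 (1.87) and Plat, which activates plasminogen, 390 and 2252 (2.53). Ace, which makes angiotensin II on lung capillaries, was at 9160 and 2470 (-1.89), and Nos3 at 234 and 242 (0.05). The adhesion molecules that catch leukocytes were higher: Sele stood at 2.75 and 351 (6.55), Selp at 84.0 and 3350 (5.30), Vcam1 at 922 and 4590 (2.31) and Icam1 at 4140 and 15400 (1.89). Icam2, which resting endothelium carries, was lower (1530 and 471; -1.70).

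**Figure D3:**
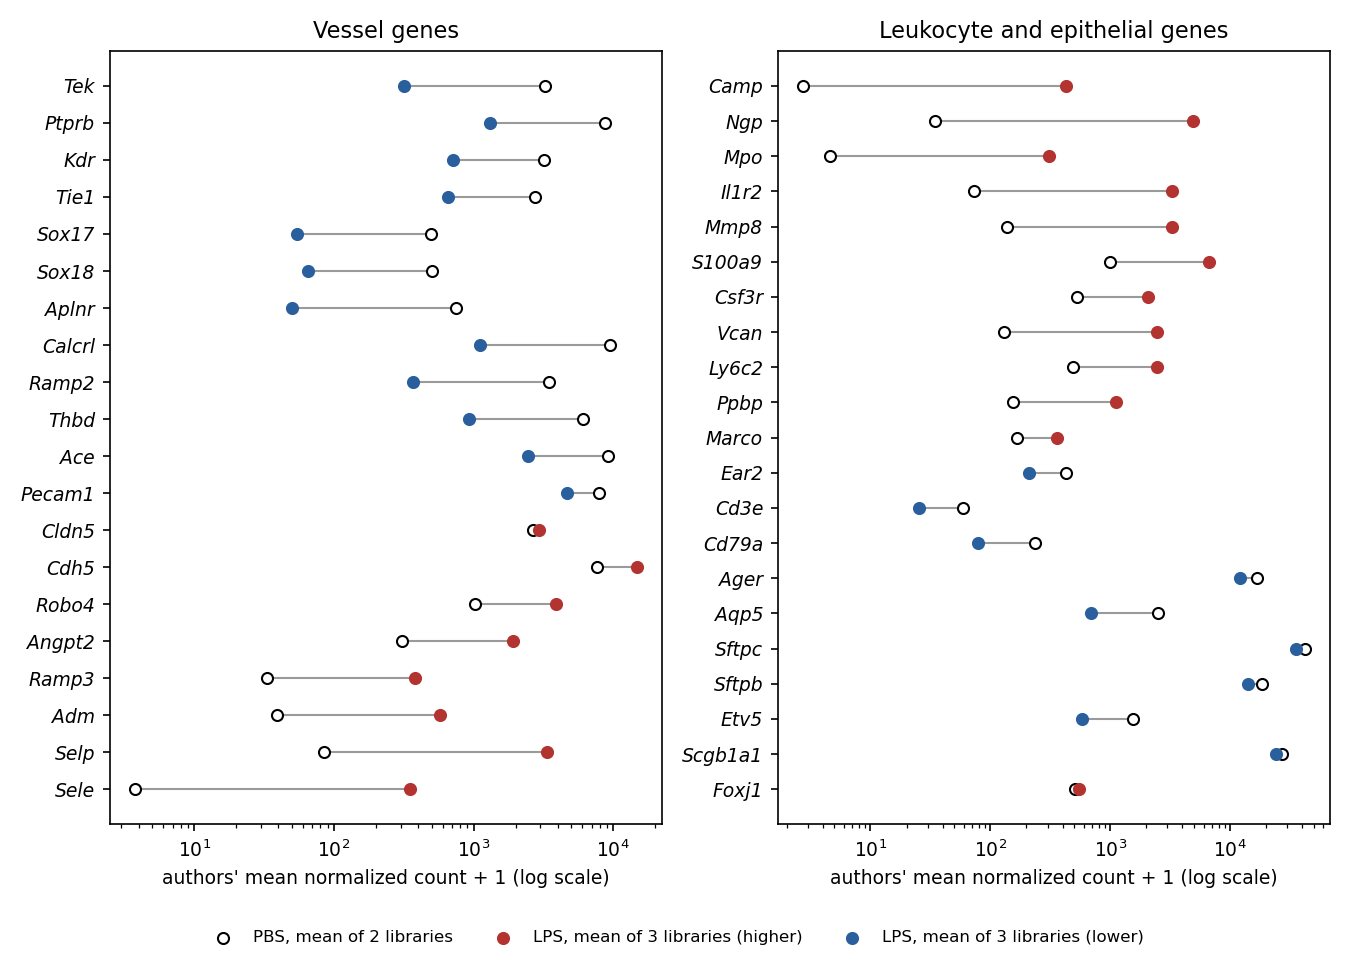
Authors' mean normalized counts plus 1 (x axis, logarithmic) of genes from the lists with PBS (open circles) and LPS (filled, red where higher and blue where lower). Tek, Ptprb and Calcrl lie to the left with LPS, Sele, Selp and Camp far to the right, and Cldn5, Sftpc and Scgb1a1 near their PBS values.

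The lowest log2 ratios included genes of other roles. Glp1r, the receptor of glucagon-like peptide 1, was first, with 219 and 2.99 (log2 ratio -5.78, 55.1-fold lower). Ankrd63 had 154 and 3.19 (-5.21), Wscd1 365 and 10.5 (-4.99), Car14, a membrane carbonic anhydrase, 237 and 6.78 (-4.94), Kank4 328 and 10.5 (-4.84), and the myelin-related Pllp 358 and 13.1 (-4.67). Ackr4, a receptor that removes chemokines, had 115 and 3.44 (-4.71), and the tetraspanin Tspan18 1310 and 56.7 (-4.51). Kif26a and the pancreatic Ctrb1 lay at -4.45 and -4.39. By difference of means the lower genes were abundant transcripts with small ratios: the nuclear RNA Malat1 (50156 and 29604; -0.76), the hypoxia factor Epas1 (22200 and 12500; -0.83), Ahnak, Gsn, Cbr2 and Cav1, the main protein of caveolae (11600 and 3240; -1.84). Calcrl, Neat1, Inmt, Ptprb, Macf1 and Ace made up the rest of the 12. Only Calcrl and Ptprb of these lay below -2. In mutant and knockout lung Malat1 had ratios of 0.18 and 1.21, and Ahnak 0.07 in both. Gsn had -0.09 and -0.30 there, and Cbr2 -0.04 and -0.28. The rest of the 12 had -0.928 or lower in both. The PBS mean of Malat1 was 30961 in mutant and 30700 in knockout lung, below that of wild type.

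Wnt ligands were among the steepest, and developmental signals were lower as a group. Wnt7a had 136 and 4.96 (-4.52), Wnt2, a mesenchymal ligand that guides lung growth, 136 and 5.82 (-4.33), and Wnt3a 207 and 12.3 (-3.97). Axin2, a common target of Wnt signals, stood at 234 and 87.3 (-1.41). Of the hedgehog pathway, Ptch1, Gli1 and Hhip, which are also its targets, had -1.65, -1.58 and -2.15. The Notch ligand Dll4 and the target Hey1 had -1.99 and -2.81, and Notch1 0.36. Of 27 genes in the list 12 were lower and 1 higher, with a median of -0.53. Fgf10, the growth factor of the lung bud, had 218 and 73.3 (-1.56), while its receptor Fgfr2 had 0.32.

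Fibroblast and pericyte genes were lower in part. Col1a1 and Eln, of collagen I and elastin, had 2650 and 885 (-1.58) and 1450 and 384 (-1.91), and the basement membrane collagens Col4a1 and Col4a2 8570 and 18900 (1.14) and 7510 and 14100 (0.91). Of 22 genes in the list 9 were lower and 1 higher. Of 15 smooth muscle and pericyte genes 7 were lower and 0 higher. Higd1b, a pericyte gene, had 191 and 36.7 (-2.35), and the 2 subunits of the nitric oxide receptor, Gucy1a3 and Gucy1b3, -1.53 and -1.29, whereas Acta2 had -0.24. Metalloproteases and their inhibitors differed the other way, with 12 of 17 higher. Timp1 stood at 75.2 and 1740 (4.51), Mmp13 at 19.7 and 371 (4.17) and Adamts9 at 317 and 2550 (3.00).

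Epithelial genes mostly lay within 2-fold. Of 17 alveolar type 2 and surfactant genes 0 were at least 2-fold higher and 1 lower, with a median of 0.10, which turns negative when both groups are scaled to the same total. Sftpa1, Sftpb and Sftpc had 0.15, -0.40 and -0.24, and Etv5, a factor that maintains type 2 cells, 1540 and 575 (-1.42). Of 12 ciliated cell genes 0 passed 2-fold in either direction. Of 13 airway secretory genes 2 were higher, a share near the 13.9% of all entries. They were the antimicrobial lectin Reg3g (190 and 553; 1.54) and Hp (6170 and 19500; 1.66). Alveolar type 1 genes were lower in 4 of 12 cases. Aqp5, the water channel of these cells, had 2500 and 696 (-1.84), Akap5 5770 and 1160 (-2.31), Rtkn2 -1.46 and Cav1 -1.84, while Ager and Hopx had -0.49 and 0.11. Cav1 is also abundant in endothelium. Among genes of alveolar fluid transport the sodium pump subunit Atp1b1 (2420 and 5280; 1.13) and Sgk1, a kinase that keeps sodium channels at the surface (803 and 3110; 1.95), were higher, while the channel subunit Scnn1a had -0.19. All 13 tight and adherens junction genes lay within 2-fold, from Ocln at -0.60 to Cldn4 at 0.81.

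Stress hormone targets and the clock also differed. Fkbp5, a feedback gene of the glucocorticoid receptor, had 237 and 3560 (3.90), Zbtb16 333 and 2430 (2.86) and Tsc22d3 2540 and 5160 (1.02), and 11 of 14 genes of that list were higher. Of 17 clock genes 4 were higher and 6 lower, against 13.9% and 14.3% of all entries. Nfil3 stood at 31.4 and 546 (4.08) and Arntl, the positive arm, at 22.5 and 117 (2.33), while the output factors Hlf and Dbp had 629 and 68.3 (-3.18) and 1400 and 204 (-2.77), and the repressor Nr1d1 2050 and 565 (-1.86). The labels used here give no time of day.

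Metabolic genes differed by function. Of 19 genes of glycolysis and the hypoxia response 11 were higher and 0 lower, led by Hif1a (653 and 7130; 3.45) and Pfkfb3, which speeds glycolysis (1480 and 14600; 3.30). Of 21 subunits of oxidative phosphorylation and 24 ribosomal proteins 0 passed 2-fold. Their medians of 0.06 and 0.17 turn negative at equal totals. Of 17 antioxidant genes 10 were higher, among them the cystine importer Slc7a11 (28.2 and 894; 4.94), mitochondrial Sod2 (1020 and 8480; 3.05) and Gclc, which makes glutathione (1210 and 7780; 2.68), and Sod3, the form bound to the vessel wall, was lower (3660 and 1760; -1.06). Ch25h, which makes an antiviral oxysterol, had 47.6 and 686 (3.82). Of 16 cytochrome P450 genes 2 were higher and 6 lower, against 13.9% and 14.3% of all entries. Cyp26b1, which degrades retinoic acid, had 315 and 21.4 (-3.82). Death and survival genes were both higher: Mlkl, the effector of necroptosis, had 126 and 1640 (3.69), Birc3, an inhibitor of apoptosis, 319 and 4170 (3.70) and Cdkn1a 554 and 6110 (3.46). Of 25 cell cycle genes 10 were higher and 1 lower, with Cdk1 at 23.3 and 97.0 (2.01) and the replication gene Mcm2 at 128 and 129 (0.01).

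Other gene families had medians nearer to 0. The lowest were Adam (18 genes; -0.88), Sema (19; -0.69), Arhgef (24; -0.66), Tspan (19; -0.58), Smim (15; -0.55) and Col (35; -0.54). The semaphorins, guidance cues for vessels and nerves, were divided: Sema6a (1220 and 253; -2.27), Sema3g (1400 and 318; -2.13) and Sema3c (4040 and 923; -2.13) were lower, and Sema7a (624 and 6380; 3.35) and Sema4c (207 and 2150; 3.37) higher. After Ccl and Il the highest were Tnfrsf (19 genes; 0.90), Bcl (21; 0.49), Nup (20; 0.44) and Ddx (36; 0.41). Within Tnfrsf, Tnfrsf1b, a receptor of Tnf, had 510 and 3730 (2.87) and Tnfrsf19 416 and 140 (-1.56).

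The same contrast in lungs of the other genotypes, with their own PBS libraries, showed many of the same entries. Of 15092 entries in mutant lung 2336 (15.5%) were at least 2-fold higher with LPS and 2420 (16%) at least 2-fold lower, and of 15208 in knockout lung 2576 (16.9%) and 2697 (17.7%). Of the 2098 entries higher in wild type lung 1691 (80.6%) were at least 2-fold higher in both, and of the 2158 lower ones 1566 (72.6%) were lower in both. Glp1r had -5.11 in mutant and -5.94 in knockout lung, and Csf3 8.83 and 8.47. Of the higher entries 6 were at least 2-fold lower in mutant lung: Ddx3y, which has 2 entries, Eif2s3y, Kdm5d, Uty and Zfp69. The mutant LPS libraries had Xist at 4510 and Ddx3y at 4.73, the reverse of wild type. Knockout lung had Xist at 1910 with PBS and 23.2 with LPS, in the same direction as wild type. Of the lower entries 28 were at least 2-fold higher in knockout lung, with Ctrb1 at 13.3 and 52.4 there as an example from the pancreas. Liver genes also differed between the genotypes. Their median was -0.18 in wild type (0.74 over members with a mean of 50 or more), 4.47 in mutant and 3.96 in knockout lung, and Alb had 370 and 242 in wild type, 9.08 and 462 in mutant and 110 and 2460 in knockout. Within wild type 4 of 11 liver genes were at least 2-fold higher and 2 lower, against 13.9% and 14.3% of all entries. The higher ones were the fibrinogen genes Fga, Fgb and Fgg, at 2.54, 2.08 and 3.29, and Ambp at 1.43.

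The interferon genes had smaller ratios in wild type than in both other genotypes, and so did other lists. In wild type, mutant and knockout, NF-kB genes had medians of 2.38, 3.08 and 2.78, and ribosomal protein genes 0.17, 0.56 and 0.90. Other lists had the reverse order, such as glucocorticoid-responsive genes at 2.25, 1.71 and 1.52. The medians over 31 interferon genes were 2.83 in wild type, 3.64 in mutant and 3.57 in knockout. In the PBS groups the wild type mean was above the mutant mean for all 31 genes, by a median log2 ratio of 0.68, and above the knockout mean for 30, by 0.76, while with LPS the medians were -0.29 and -0.11. Ifit1 had 1340 with PBS in wild type, 523 in mutant and 608 in knockout, and Slfn4 824, 227 and 152. For ribosomal protein genes the PBS mean was also higher in wild type than in either line for all 24, by medians of 0.22 and 0.36. With LPS the wild type mean was lower than in either line for all 24, with medians of -0.18 and -0.40. The wild type PBS group is also the one with pancreatic RNA. The differences between the PBS groups were not tested here.

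In wild type spleen, 1826 of 13513 entries (13.5%) were at least 2-fold higher and 2006 (14.8%) at least 2-fold lower with LPS. Of the 2098 entries higher in lung, 2085 were listed in spleen, and 873 of these (41.9%) were higher there and 105 lower. Of the lower ones, 954 of 2107 (45.3%) were lower in spleen and 98 higher. The spleen groups also differed in pancreatic genes, with Ctrb1 at 166 and 5410 and a list median of 3.85, and in Xist, at 2470 and 31.3, and the part of these in the counts was not tested. Il6 and Csf3 had spleen ratios of 6.47 and 6.31, near or below those of lung, while Camp had 0.07. Glp1r stood at 0.561 and 0 in spleen, too low for its ratio of -0.64 to be read. Medians for Cxcr3 ligands were 7.39 in lung and 3.64 in spleen, for acute phase proteins 4.63 and 1.39, and for type I interferon genes 2.83 and 1.79. Lung and spleen values come from tables normalized separately. No test of the difference between tissues could be made from group means.

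**Figure D4:**
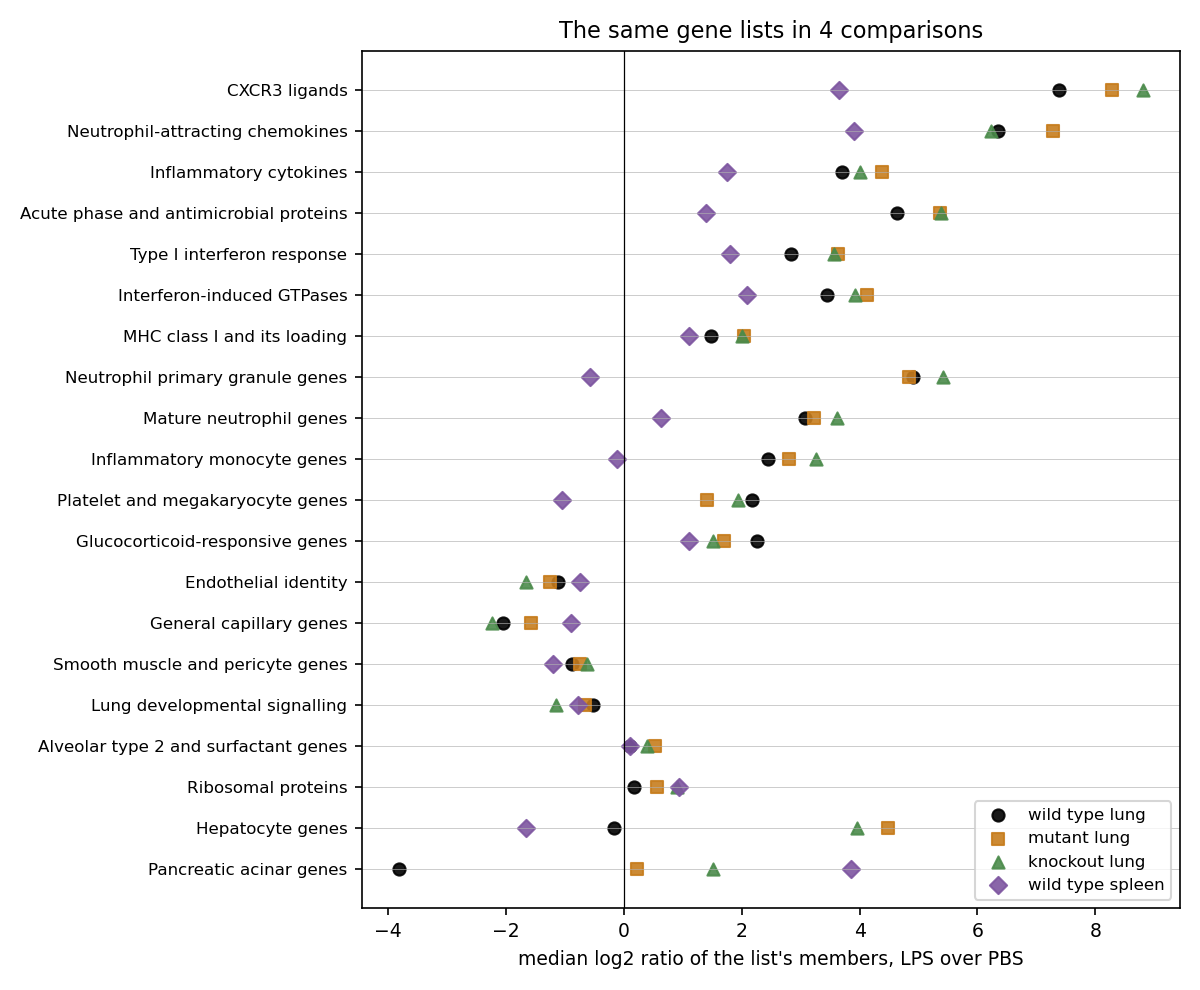
Median log2 ratio of LPS over PBS for 20 gene lists in wild type lung (circles), mutant lung (squares), knockout lung (triangles) and wild type spleen (diamonds), over the members that passed the limit in wild type lung. The liver and pancreas lists differ most widely between the 3 lung genotypes, and spleen lies to the left of lung for chemokine, neutrophil and platelet lists.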

How the data were processed

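RNA from mouse lung and spleen was prepared with mRNA isolation kits and sequenced, per the labels' protocols. STAR 2.5.3a, Bowtie2, SAMtools, bedtools and DESeq2 with the mm10 genome are named in the submitters' processing notes, without order or settings. The deposited tables give, per the file headers, a normalized signal named baseMean for each group. By that name it is a mean over libraries of counts divided by size factors, and the recurring steps among low values were read on that basis. Values of single libraries were not used here, so no test and no SD was computed.

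Of 19476 lung lines 6 without a readable identifier or value were left out, and in spleen 1026 split symbols were rejoined; 242 lung symbols stand on more than 1 entry, which were all kept, and lists used the entry with the highest mean. The log2 ratio used a pseudocount of 1, a mean of 10 or more in either group and a fold limit of 2. The worth of 1 read per library was taken from recurring low steps of the group means, and 98.7% of low LPS values and 100% of low PBS values were whole combinations of steps within 0.5%. Floors are 3 reads over the group and 95% intervals are exact Poisson intervals. Both cover counting error only, and the ratios given with them have no pseudocount. Positions come from GENCODE M21 and promoters from RefSeq (GRCm38.p6). Named genes are the 12 largest and smallest log2 ratios with a higher mean of 100 or more, without sex-linked genes, unnamed models and receptor segments, the 12 largest differences each way, and the extremes and explained members of 76 lists. The genes and lists were chosen with earlier results of these data known. Computations used Python with pandas and numpy and were tested on simulated data.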

Additional observations from a re-analysis of the deposited data

How the results depend on the processing

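With a pseudocount of 0.1 or 5, a limit of 50 or none on the mean, centring on the median, 1 entry per symbol, or without chromosomes X and Y, entries at least 2-fold higher numbered 1746 to 2623 and lower ones 1475 to 2863, within 1.5 times the reported counts. With both groups scaled to the same total, 1450 were higher and 3574 lower. At a limit of 4-fold, 82.6% of the higher and 61.5% of the lower entries passed it in both other genotypes. In spleen 25.9% and 24.8% passed it, against 41.9% and 45.3% at 2-fold. Of all wild type lung entries 5.56% were at least 4-fold higher and 3.73% at least 4-fold lower. The shares of all entries past 4-fold in the other comparisons were not computed. The fall in spleen therefore cannot be set against its base share, and its cause was not tested. Scaling to the same total changed the sign of 8 of 76 list medians, all within 0.36 of 0, and took 13 medians across 2-fold. A mean of 50 or more changed the sign of 4 (dendritic cell, hepatocyte, cardiac muscle and brown fat genes) and took 3 across 2-fold. With a pseudocount of 5 the medians of the neutrophil granule and acute phase lists were 3.73 and 3.74 in place of 4.91 and 4.63. That of neutrophil-attracting chemokines was 5.18 in place of 6.35. The median of the thymocyte list, -1.36 over 3 genes, became 1.04 without the limit on the mean, which adds 2 genes of low mean. The signs of the 47 genes named by size could not change in these checks, which therefore say nothing about them. A pseudocount added to both means keeps their order. The genes were chosen for large differences, so a shift of 0.36 reverses none. Leaving out single libraries could not be run because only group means were used, so a gene set by 1 library cannot be told from one shared by all. No paired analysis was possible because the columns hold group means.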
